A study of Mus musculus with 6 samples.

Results

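The 10 genes described here form the circadian clock of mouse cells as it was read in cultured hepatocytes: Per1, Per2, Per3, Cry1, Cry2, Arntl (also called Bmal1), Clock, Nr1d1, Nr1d2 and Dbp. They were taken by name, with earlier results of these data known. Every probe that the platform's annotation assigns to them was included, which gave 19 of the 45281 probes in the deposited table. Of these, 13 probes of 8 genes passed a filter on dim probes (above the array's median on at least 2 arrays) and were tested. The single probes of Cry1 and Nr1d1 did not pass, and these genes are described by their values alone.

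Primary hepatocytes were taken from male mice of the C57Bl/6J strain, and their RNA was hybridised as biotin-labelled cRNA to 6 single-colour Illumina arrays, 2 per group. One group was left unstimulated. The others received recombinant murine tumour necrosis factor alpha (TNFα), an inflammatory cytokine, at 2 ng/mL, one for 2 hours and the other for 2 days. All groups, the unstimulated one included, were kept on collagen in Williams' E medium with 5% fetal calf serum, 50 nM dexamethasone (a synthetic glucocorticoid) and 1 nM insulin. The labels give no age of the mice, no hour of harvest, no time in culture for the unstimulated cells and no statement that the replicates came from separate animals or cultures. Exposure to TNFα therefore cannot be told apart from time in culture or from the clock time of harvest, and the p-values rest on a spread between arrays that may be technical alone.

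The clock is a feedback loop of transcription. The activators CLOCK and ARNTL bind E-boxes and switch on the Per and Cry genes, whose proteins return to the nucleus and repress them. In a second loop NR1D1 and NR1D2 (REV-ERBα and REV-ERBβ) repress Arntl through ROR elements, and DBP, an output of the loop, acts on D-boxes. In liver this loop drives daily rhythms of metabolic genes, and serum and dexamethasone are both in common use to reset the clocks of cultured cells.

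To show the elements named above, promoter windows of the members were read from RefSeq (build GRCm38.p6), each running from 250 bases before a transcription start to 50 after it. There were 13 such windows for 9 of the 10 genes, all except Per2. Both strands were searched for the E-box CACGTG, its variant CACGTT (the E'-box), the D-box TTATGTAA, the ROR element core TAGGTCA, the cAMP response element TGACGTCA and the NF-κB site. Printed here are the 250 bases before a start of Per1 and of Cry2, the members with the largest fall at 2 days and at 2 hours, and 30 bases around the match in Arntl, which also fell at 2 days. Sequences run 5′ to 3′ on the gene's strand, and capitals mark the matches.
Per1 (chr11:69098699-69098948, plus strand; capitals, E-box): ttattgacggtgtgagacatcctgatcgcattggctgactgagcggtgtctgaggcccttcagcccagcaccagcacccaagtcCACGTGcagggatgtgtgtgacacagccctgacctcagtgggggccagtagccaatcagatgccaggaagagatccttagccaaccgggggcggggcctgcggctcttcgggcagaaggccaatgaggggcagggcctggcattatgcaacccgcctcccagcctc
Cry2 (chr2:92434070-92434319, minus strand; capitals, E'-box on the other strand, then NF-κB site on the other strand): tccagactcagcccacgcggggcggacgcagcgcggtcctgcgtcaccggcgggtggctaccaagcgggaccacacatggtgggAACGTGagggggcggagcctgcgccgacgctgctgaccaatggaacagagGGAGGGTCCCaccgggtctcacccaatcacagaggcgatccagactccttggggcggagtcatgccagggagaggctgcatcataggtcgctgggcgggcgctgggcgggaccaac
Arntl (chr7:113207529-113207558, plus strand; capitals, ROR element core): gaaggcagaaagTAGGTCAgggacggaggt

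In these windows the E-box of Per1 lay 166 to 161 bases before the start, and the E'-box of Cry2 at the same distance from its own. The NF-κB site of Cry2 lay 116 to 107 bases before the start, and the ROR element core of Arntl 31 to 37 bases after it. The other start of Per1 held none of the 6 motifs. Among the 13 windows, the E-box stood in 2 (Per1 and Cry1), the E'-box in 3 (Cry1, Cry2 and Nr1d1), the D-box in 1 (Per3, with 2 matches), the ROR element core in 1 and the NF-κB site in 2 (Cry2 and Clock). The cAMP response element stood in 0. Among all 32851 windows of the same length, 7.15% held the E-box, 4.68% the E'-box, 0.938% the D-box, 2.61% the ROR element core, 1.79% the cAMP response element, and 8.46% the NF-κB site. The matches describe letters and not bound sites, and the windows of Dbp and Nr1d2 held none of these letters.

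Values are deposited intensities on a linear scale, which still hold their background (no value lies below 96.5), so changes of dim probes are understated. They compare one probe across arrays, and levels of different probes were not compared. Over the 13438 genes tested, r was 0.995 to 0.996 within groups and 0.982 to 0.991 across them. The hepatocyte label was checked on 9 of 10 listed markers, as Tat did not pass the filter. Among the 9, Apoa1, Apoa2 and Ttr (apolipoproteins A-I and A-II and transthyretin) lay between 21975 and 42029 on all arrays. The probes of Alb (144.6 to 174.5) and Fgb (118.6 to 147.1), for albumin and fibrinogen beta, were near background. Changes are given in log2 with their standard error (SE) from a limma fit with 1 probe per gene, and a call is a Benjamini-Hochberg adjusted p under 0.05 over all genes tested. With only 2 arrays per group an exact permutation test cannot go below p = 0.333, so single values were not tested that way.

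**Figure D1:**
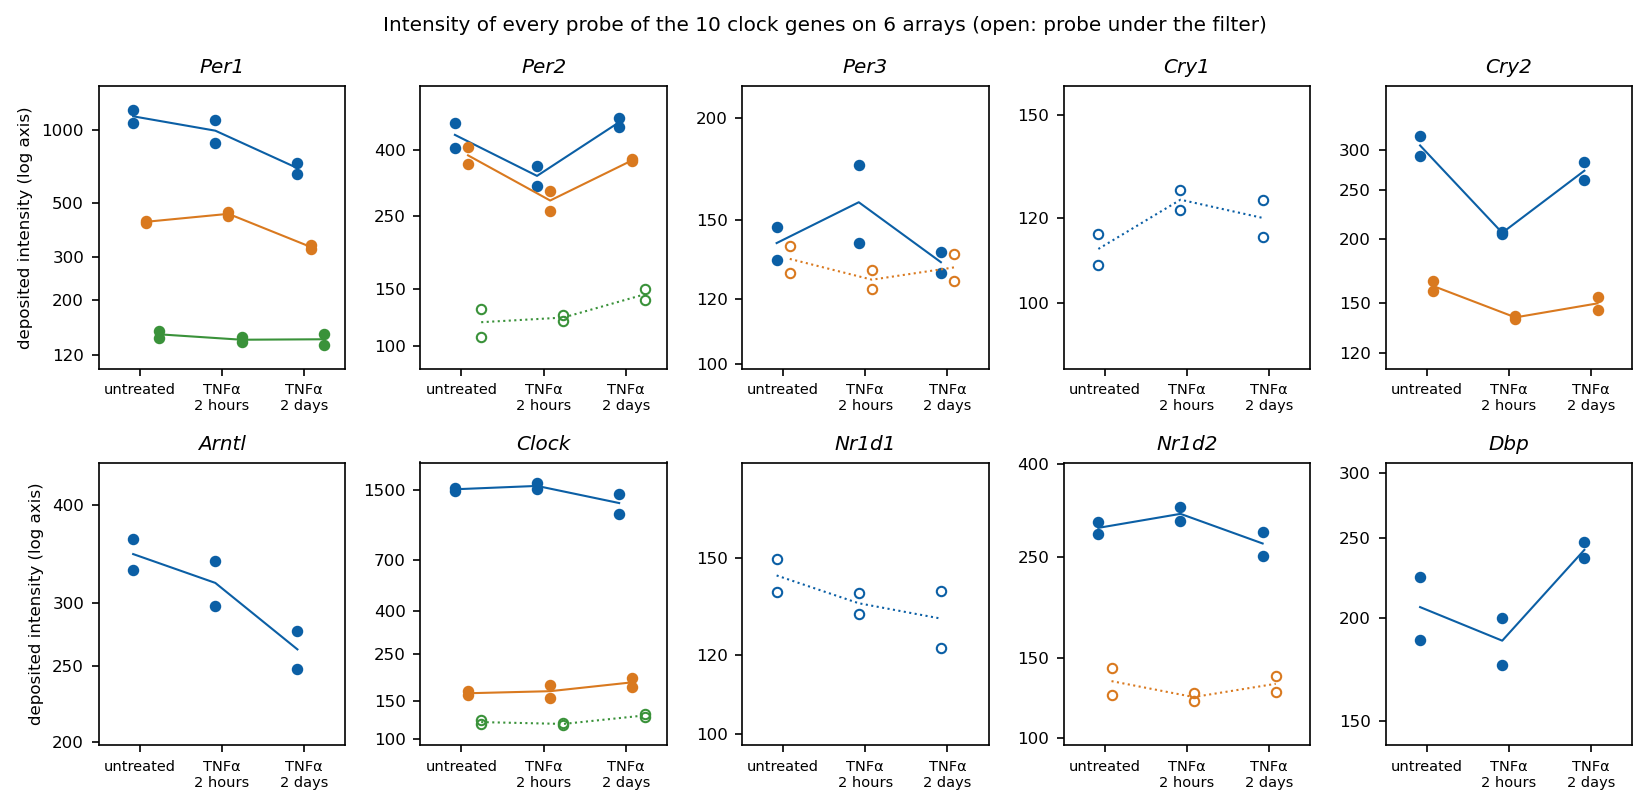
Deposited intensity (log axis, arbitrary units) of all 19 probes of the 10 clock genes on the 6 arrays; each point is an array, lines join the means of the 2 arrays, colours are different probes of a gene, and open points are probes that did not pass the filter. Both passing probes of Per2 and of Cry2 are lowest at 2 hours, Per1 and Arntl are lowest at 2 days on their brightest probe, and the probes of Cry1 and Nr1d1 stay between 108.5 and 149.7.

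After 2 hours of TNFα, 2 of the 8 clock genes tested had fallen, Cry2 and Per2, and 0 had risen. Both encode repressors of the negative limb, and the falls were of 1.48-fold and 1.33-fold. Over all genes tested, 2.82% were called at 2 hours, 1.76% higher and 1.06% lower. The 2 hour arrays stood apart from the untreated ones without overlap for 3 of the 8 clock genes, against 40.4% of all genes. The median log2 change was -0.13 over the 8 clock genes and -0.01 over all genes.

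Cry2, a cryptochrome that represses CLOCK and ARNTL, read 291.5 and 319.6 in untreated cells, 205.3 and 206.9 after 2 hours, and 284.0 and 261.3 after 2 days. The 2 hour arrays were the lowest pair and overlapped with neither other group. At 2 hours the log2 change was -0.57 (SE 0.10, adjusted p = 0.000823 by limma, lower in 2 of 2 arrays). Its other probe, annotated to a different transcript, read 158.4 to 165.8 untreated and 139.7 to 141.8 at 2 hours, again without overlap. That probe lies near background and gave -0.20 (SE 0.10, adjusted p = 0.473 by limma over all probes). After normexp background correction the change of the brighter Cry2 probe was -0.90 and its adjusted p = 0.0508 by limma, just over the threshold.

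Per2, a period protein that partners the cryptochromes, read 483.9 and 405.1 untreated, 309.3 and 356.3 after 2 hours, and 501.8 and 470.2 after 2 days. Its 2 hour arrays were below all 4 others. The change at 2 hours was -0.42 (SE 0.11, adjusted p = 0.0351 by limma). The next probe, of the same transcript, was also lowest at 2 hours: 406.9 and 362.4 untreated, 259.6 and 299.97 at 2 hours, and 374.3 and 369.0 at 2 days. The probes differed in which of the other groups was higher, with log2 changes at 2 days of 0.13 on the brightest and -0.05 on this one. The second probe gave -0.46 at 2 hours (SE 0.10, adjusted p = 0.0146 by limma over all probes). The dimmest Per2 probe, at 107.0 to 150.4, did not pass the filter. The Per2 call at 2 hours was lost without untreated replicate 1 (-0.29, adjusted p = 0.406 by limma), 2 hour replicate 1 (-0.31, adjusted p = 0.417) or 2 hour replicate 2 (-0.52, adjusted p = 0.0747), after normexp (-0.55, adjusted p = 0.324) and after cyclic loess (-0.40, adjusted p = 0.0563).

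The other 6 genes tested were not called at 2 hours. Per1, a period gene that glucocorticoids induce, gave -0.20 on its brightest probe, with a 95% interval from -0.43 to 0.03, and 0.11 and -0.07 on the others. Among the activators, Arntl gave -0.12 (interval -0.34 to 0.10) and Clock 0.05 (-0.17 to 0.28). In the second loop Nr1d2 gave 0.10 (-0.11 to 0.31). The output gene Dbp gave -0.13 (-0.36 to 0.09) and Per3 0.16 (-0.07 to 0.39). These intervals include 0 and leave room for changes of up to 0.43 in size on the log2 scale. Over all probes, 3 of the 13 clock probes were called, both of Per2 and 1 of Cry2, against 1.89% of all probes.

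**Figure D2:**
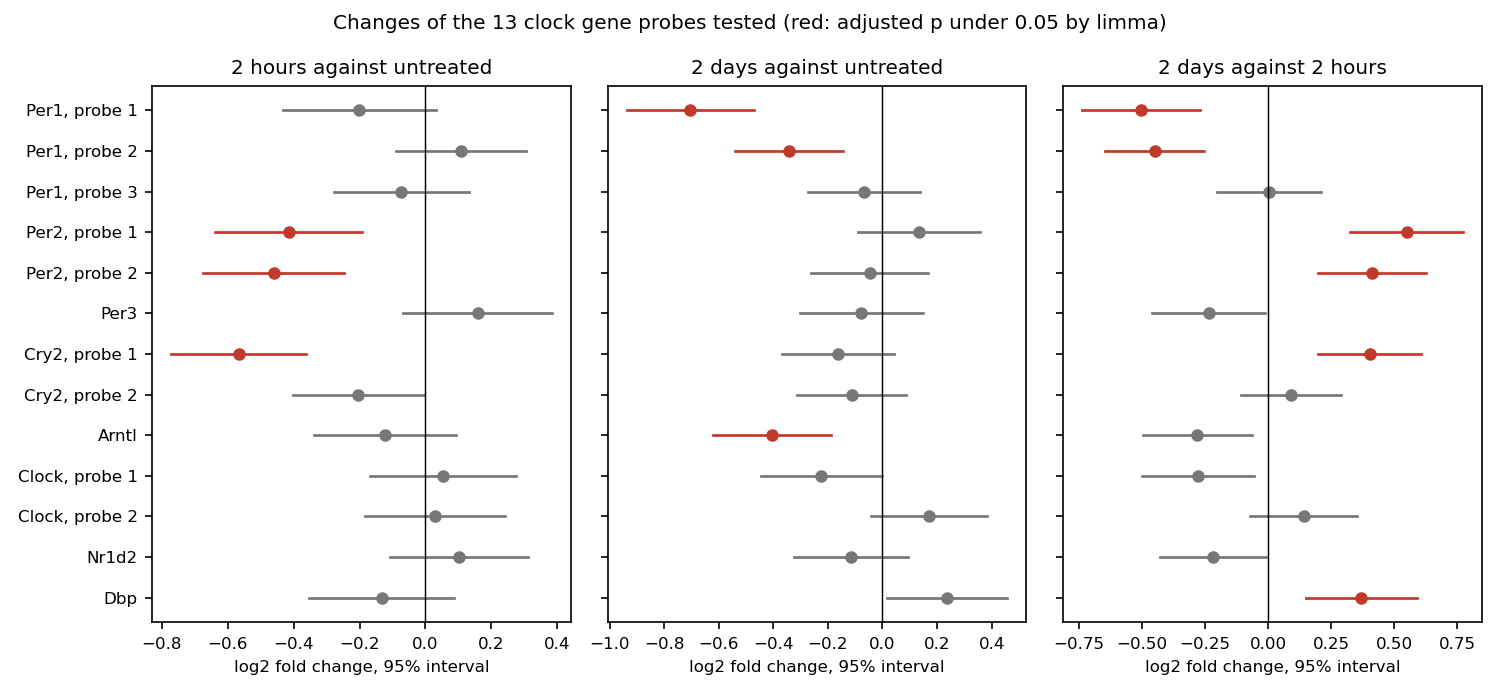
Log2 fold change with 95% interval of the 13 tested probes of the clock genes in each comparison, from the limma fit over all probes that passed; probe 1 is the brightest of its gene in untreated cells, and red marks an adjusted p under 0.05. In the panel for 2 hours only probes of Per2 and Cry2 are red, and in that for 2 days only probes of Per1 and Arntl. In the panel between the times the red probes of Per1 lie below 0 and the red ones of Per2, Cry2 and Dbp above it.

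After 2 days of TNFα the genes called were other ones: Per1 and Arntl were lower than in untreated cells, by 1.63-fold and 1.32-fold, and 0 of the 8 were higher. Arntl is the partner of CLOCK in the activator, and Per1 belongs to the repressors. Over all genes tested, 12.7% were called at 2 days, 6.74% higher and 5.92% lower. For 5 of 8 clock genes the 2 groups had no overlapping arrays, against 49.6% of all genes. The median log2 change was -0.14 over the clock genes and 0.01 over all genes. The 2 untreated arrays serve this comparison and the one at 2 hours.

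Per1 read 1063 and 1210.3 untreated, 1100.2 and 885.0 after 2 hours, and 660.0 and 734.5 after 2 days. The 2 day arrays lay below the other 4, which overlapped with each other. Its change at 2 days was -0.70 (SE 0.11, adjusted p = 6.19e-05 by limma), and it stayed called under every one of the 20 alternatives run, from -0.80 to -0.37. Some of these alternatives could change little, as described in the last section. The second probe of this transcript read 417.3 and 423.2 untreated, 445.0 and 460.8 at 2 hours, and 325.8 and 337.4 at 2 days. Its 3 groups did not overlap, with the 2 day arrays lowest, and its change at 2 days was -0.34 (SE 0.10, adjusted p = 0.0224 by limma over all probes). Its dim last probe, from 131.6 to 149.7 on all arrays, gave -0.07. With the mean of the gene's 3 probes in place of the brightest, the change was -0.37. After normexp the brightest probe gave -0.79, just under the threshold (adjusted p = 0.0478 by limma with 1 probe per gene). In the normexp fit over all probes, 0 of the 13 clock probes were called at 2 days.

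Arntl, with 1 probe, read 330.6 and 363.0 untreated, 297.5 and 339.8 after 2 hours, and 276.8 and 247.5 after 2 days. The 2 day arrays were the lowest pair, and those of the earlier groups overlapped. The change at 2 days was -0.40 (SE 0.11, adjusted p = 0.0104 by limma). The Arntl call was lost without untreated replicate 2 (-0.34, adjusted p = 0.108 by limma), without 2 day replicate 2 (-0.32, adjusted p = 0.151) and after normexp (-0.58, adjusted p = 0.106).

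The other activator, Clock, read 1489 and 1534 untreated, 1517 and 1619 at 2 hours, and 1161 and 1441 at 2 days on its brightest probe. It gave -0.22 at 2 days (interval -0.45 to -0.0006, adjusted p = 0.218 by limma), with the 2 day arrays far apart from each other. Its next probe read 160.2 to 167.4 untreated and 176.0 to 193.0 at 2 days, and gave 0.17, so the 2 probes differed in sign and neither was called. Dbp, a D-box factor and direct target of CLOCK and ARNTL, gave 0.24 (interval 0.01 to 0.46, adjusted p = 0.187 by limma). Per2 gave 0.13, Cry2 -0.16, Per3 -0.08 and Nr1d2 -0.12, none of them called. Over all probes, 3 of 13 clock probes were called at 2 days, 2 of Per1 and that of Arntl, against 9.63% of all probes.

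Markers of cell types moved over the same arrays. The summed intensity of 9 hepatocyte markers was 121766 to 132317 on the untreated and 2 hour arrays and 79505 to 82163 on the 2 day arrays. Of these, 0 were called at 2 hours and 4 were lower at 2 days: Cps1 (-3.10), Cyp3a11 (-2.97), Asgr1 (-1.605) and Apoa1 (-0.82). The other 5 were not called at 2 days. Among all genes tested, 2.82% were called at 2 hours, and 6.74% were higher and 5.92% lower at 2 days. Apoa1, Apoa2 and Ttr hold most of the sum, so it does not give the size of the falls of Cps1, Cyp3a11 and Asgr1. The sum of 3 bile duct markers was 1192.5 to 1208 untreated, 1808 to 1828 at 2 hours and 3180 to 3424 at 2 days, with 1 marker, Sox9, higher at both times. Sox9 held most of this sum, and the dim Krt19 (0.19 at 2 days) and Krt7 (0.09) were not called. The sum of 7 macrophage markers was 1172 to 1233 on the first 4 arrays and 1410 to 1575 at 2 days, with 3 higher at 2 days. The sum of 5 stellate cell markers, with Acta2 as its largest part, was 2462 to 2881 on the first 4 arrays and 3192 to 3872 at 2 days. At 2 days 1 of them, Acta2, was higher (0.67, adjusted p = 0.00114 by limma) and 1, Reln, was lower (-0.82, adjusted p = 1.2e-06), after a rise of Reln at 2 hours (0.43, adjusted p = 0.0133). The sum of 6 endothelial markers was 1131 to 1303 on all arrays, while at 2 days 1 of them, Oit3, was higher (0.43, adjusted p = 0.00593 by limma) and 1, Stab2, lower (-0.37, adjusted p = 0.0223). Of 6 lymphocyte and neutrophil markers 1 passed the filter. Defining markers that did not pass included Tat of hepatocytes and Clec4f and Cd5l of macrophages. Others were Lrat and Pdgfrb of stellate cells, Epcam of bile duct cells and Ptprc of leukocytes. The part of these shifts in the clock gene changes was not tested, and in such bulk samples fewer cells of a type and less RNA per cell cannot be told apart.

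Between 2 hours and 2 days of exposure 4 of the 8 clock genes differed. Per2, Cry2 and Dbp were higher at 2 days, by 1.46-fold, 1.32-fold and 1.29-fold, and Per1 was lower by 1.42-fold. The 2 period genes with bright probes thus moved in opposite directions between these times. Over all genes tested, 15.3% were called in this comparison, 8.63% higher and 6.67% lower. On the probe used for each gene, all 8 clock genes had arrays that did not overlap between the times, against 52.8% of all genes. All 8 had an unadjusted p under 0.05 by limma, against 25.7% of all genes, with Per3, near background, at 0.043 and Nr1d2 at 0.045. The 8 leave out Cry1 and Nr1d1, whose arrays overlapped between the times. In a limma fit without the filter their unadjusted p was 0.53 and 0.57. In the fit over all probes, the second probes of Clock and Cry2 and the dim one of Per1 had an unadjusted p of 0.181, 0.356 and 0.962 by limma.

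For Per2 the log2 change from 2 hours to 2 days was 0.55 (SE 0.11, adjusted p = 0.0007 by limma), with the second probe at 0.41 (SE 0.10, adjusted p = 0.00831 over all probes). Cry2 gave 0.40 (SE 0.10, adjusted p = 0.00621) and its dimmer probe 0.09 (adjusted p = 0.675). Neither repressor was called at 2 days against untreated cells, with intervals from -0.09 to 0.36 for Per2 and from -0.37 to 0.05 for Cry2. On both Cry2 probes the 2 day arrays still lay below the untreated ones. Such a separation, in either direction, was seen for 49.6% of all genes. Per1 gave -0.50 (SE 0.11, adjusted p = 0.00237 by limma) on its brightest probe and -0.45 (SE 0.10, adjusted p = 0.00211) on the next. The Cry2 call was lost without 2 hour replicate 1 (0.40, adjusted p = 0.0536 by limma), without 2 day replicate 1 (0.34, adjusted p = 0.0836) and with the mean of its probes (0.25, adjusted p = 0.0534), and the Per1 call without 2 hour replicate 1 (-0.35, adjusted p = 0.113). After normexp the calls of Per1 (-0.57, adjusted p = 0.104 by limma), Per2 (0.71, adjusted p = 0.0563) and Dbp (0.66, adjusted p = 0.108) were lost and that of Cry2 was kept.

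Dbp, with 1 probe, read 188.1 and 224.4 untreated, 200.3 and 175.2 after 2 hours, and 247.4 and 236.8 after 2 days. The 2 day arrays were above all others, and the untreated and 2 hour arrays overlapped. The change from 2 hours to 2 days was 0.37 (SE 0.11, adjusted p = 0.0193 by limma). It was no longer called without 2 hour replicate 2 (0.27, adjusted p = 0.255 by limma), 2 day replicate 1 (0.34, adjusted p = 0.119) or 2 day replicate 2 (0.40, adjusted p = 0.0596). The other members were not called between the times: Arntl (-0.28, adjusted p = 0.0787), Clock (-0.28, adjusted p = 0.0914), Nr1d2 (-0.22, adjusted p = 0.181) and Per3 (-0.24, adjusted p = 0.176). Clock was called after cyclic loess (-0.32, adjusted p = 0.0477 by limma), and without 2 day replicate 2 it gave -0.43. The next Clock probe went the other way between the times (0.14, adjusted p = 0.484 by limma over all probes). Over all probes, 6 of 13 clock probes were called, 4 higher and 2 lower, against 11.6% of all probes.

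The REV-ERB receptors and the dim members gave little signal to follow. Nr1d2, the haem-binding repressor REV-ERBβ, read 280.6 and 298.2 untreated, 299.1 and 322.1 at 2 hours, and 283.8 and 251.0 at 2 days. Its groups lay close together, and its other probe (120.7 to 142.2) did not pass the filter. Nr1d1 read 149.7 and 138.6 untreated, 131.9 and 138.4 at 2 hours, and 121.8 and 139.1 at 2 days, values around and below the array medians of 143.16 to 143.22. Cry1, the other cryptochrome, read 108.5 and 116.1, then 122.2 and 127.6, then 115.3 and 124.8, among the dimmest 19.4% of probes on every array. With no filter, Nr1d1 gave -0.09 at 2 hours and -0.15 at 2 days and Cry1 0.15 and 0.10, none of them called by limma (adjusted p from 0.511 to 0.862). Per3 passed the filter on 2 arrays only: it read 134.2 and 147.0 untreated, 175.0 and 140.4 at 2 hours, and 137.0 and 129.4 at 2 days, and a single 2 hour array stood above the rest. Its other probe, at 123.4 to 139.6, did not pass.

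Around these genes, 3 lists of clock-associated genes held 26 genes that were tested. The loop factors are transcription factors of the interlocked loops, the modifiers are kinases, ubiquitin ligases and partners of the clock proteins, and the outputs are liver genes known to follow the clock. Of 7 loop factors 0 were called at 2 hours by limma, against 1 at an unadjusted p under 0.05. At 2 days 1 of the 7 was lower, where 12.7% of all genes tested were called, 5.92% lower. Between the times 0 were called by limma, against 1 at an unadjusted p under 0.05. The one that fell was Rora, the activator that competes with the REV-ERB receptors at ROR elements of Arntl. It read 1649 and 1820.0 untreated, 1299 and 1485 at 2 hours, and 1252 and 1269 at 2 days. Its change at 2 days was -0.46 (SE 0.10, adjusted p = 0.00278 by limma), a call lost after normexp (-0.49, adjusted p = 0.114), and at 2 hours it gave -0.32 (adjusted p = 0.126). Of 11 modifiers, among them Csnk1d, Csnk1e, Btrc and Sirt1, 0 were called by limma in any comparison, with 0, 2 and 1 at an unadjusted p under 0.05. Over all genes tested, 11.8%, 22.8% and 25.7% had such an unadjusted p at 2 hours, at 2 days and between the times. The change of Csnk1e, the kinase casein kinase 1 epsilon, at 2 days was 0.34 (interval 0.09 to 0.58, adjusted p = 0.0622 by limma), and that of Fbxl21, a ubiquitin ligase subunit, was -0.27 (interval -0.51 to -0.04, adjusted p = 0.13).

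Of 8 liver outputs 1 was higher and 3 were lower at 2 hours, and 5 were lower at 2 days. Over all genes 1.76% were called higher and 1.06% lower at 2 hours, and 5.92% lower at 2 days. Noct, or nocturnin, a rhythmic phosphatase related to deadenylases, read 1408 and 1290 untreated, 3414 and 3388 at 2 hours, and 1508 and 1361 at 2 days. The 2 hour arrays alone were high: the change was 1.34 (SE 0.10, adjusted p = 7.78e-10 by limma) at 2 hours and 0.09 at 2 days, with 1.09 and 0.07 on its other probe. Alas1, the first enzyme of haem synthesis, gave -0.73 at 2 hours (adjusted p = 3.41e-05 by limma) and -0.66 at 2 days (adjusted p = 4.10e-05). It read 7992 and 8671 untreated, 5038 and 5022 at 2 hours, and 4980 and 5603 at 2 days. Usp2, a deubiquitinase among the most rhythmic liver transcripts, gave -0.36 at 2 hours (adjusted p = 0.046 by limma) and -0.60 at 2 days (adjusted p = 8.46e-05). Its other probe gave -0.15 and -0.04, and with the mean of the probes the change at 2 days was -0.32. Cyp7a1, the rate-limiting enzyme of bile acid synthesis, gave -0.42 (adjusted p = 0.0327 by limma) and -0.40 (adjusted p = 0.0127). It was dim, at 154.0 and 185.2 untreated and 118.1 to 135.4 on the other arrays.

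Some of these output calls rested on single arrays or on the processing. The 2 hour call of Usp2 was lost without either untreated array, without either 2 hour array and without either 2 day array (adjusted p from 0.051 to 0.278 by limma). That of Cyp7a1 at 2 hours was lost without untreated replicate 1 (-0.28), 2 hour replicate 1 (-0.52) or 2 hour replicate 2 (-0.32). At 2 days the Cyp7a1 call was lost without untreated replicate 1 (-0.27), 2 day replicate 1 (-0.40) or 2 day replicate 2 (-0.40). After normexp Alas1 and Usp2 at 2 hours (adjusted p = 0.097 and 0.176) and Cyp7a1 at both times (adjusted p = 0.177 and 0.0741) were not called by limma.

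Insig2, an inhibitor of cholesterol synthesis, and Cyp2a5, a cytochrome P450 under DBP control, fell at 2 days and were not called at 2 hours. Insig2 read 8134 and 7836 untreated, 7097 and 7726 at 2 hours, and 4243 and 4195 at 2 days, a change of -0.92 (SE 0.10, adjusted p = 1.73e-07 by limma). All 3 of its probes were lower at 2 days, the others at -0.91 and -2.30. The Cyp2a5 probe used gave -2.00 at 2 days, with -0.53 to -0.13 on its 4 others. Between the times it gave -1.76, and the others -0.28 to 0.04, none of them called over all probes. With the mean of its 5 probes the changes were -0.61 at 2 days and -0.47 between the times, both still called. Gys2, the liver glycogen synthase, was called between the times (-0.39, adjusted p = 0.00905 by limma) and not against untreated cells. Between the times 4 of 8 outputs were lower and 0 higher, against 6.67% lower and 8.63% higher over all genes. The Gys2 call was lost without 2 hour replicate 1 (-0.32, adjusted p = 0.128) and without 2 day replicate 1 (-0.33, adjusted p = 0.105). Nampt, which makes the NAD precursor, gave 0.11 and -0.03 against untreated cells.

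**Figure D3:**
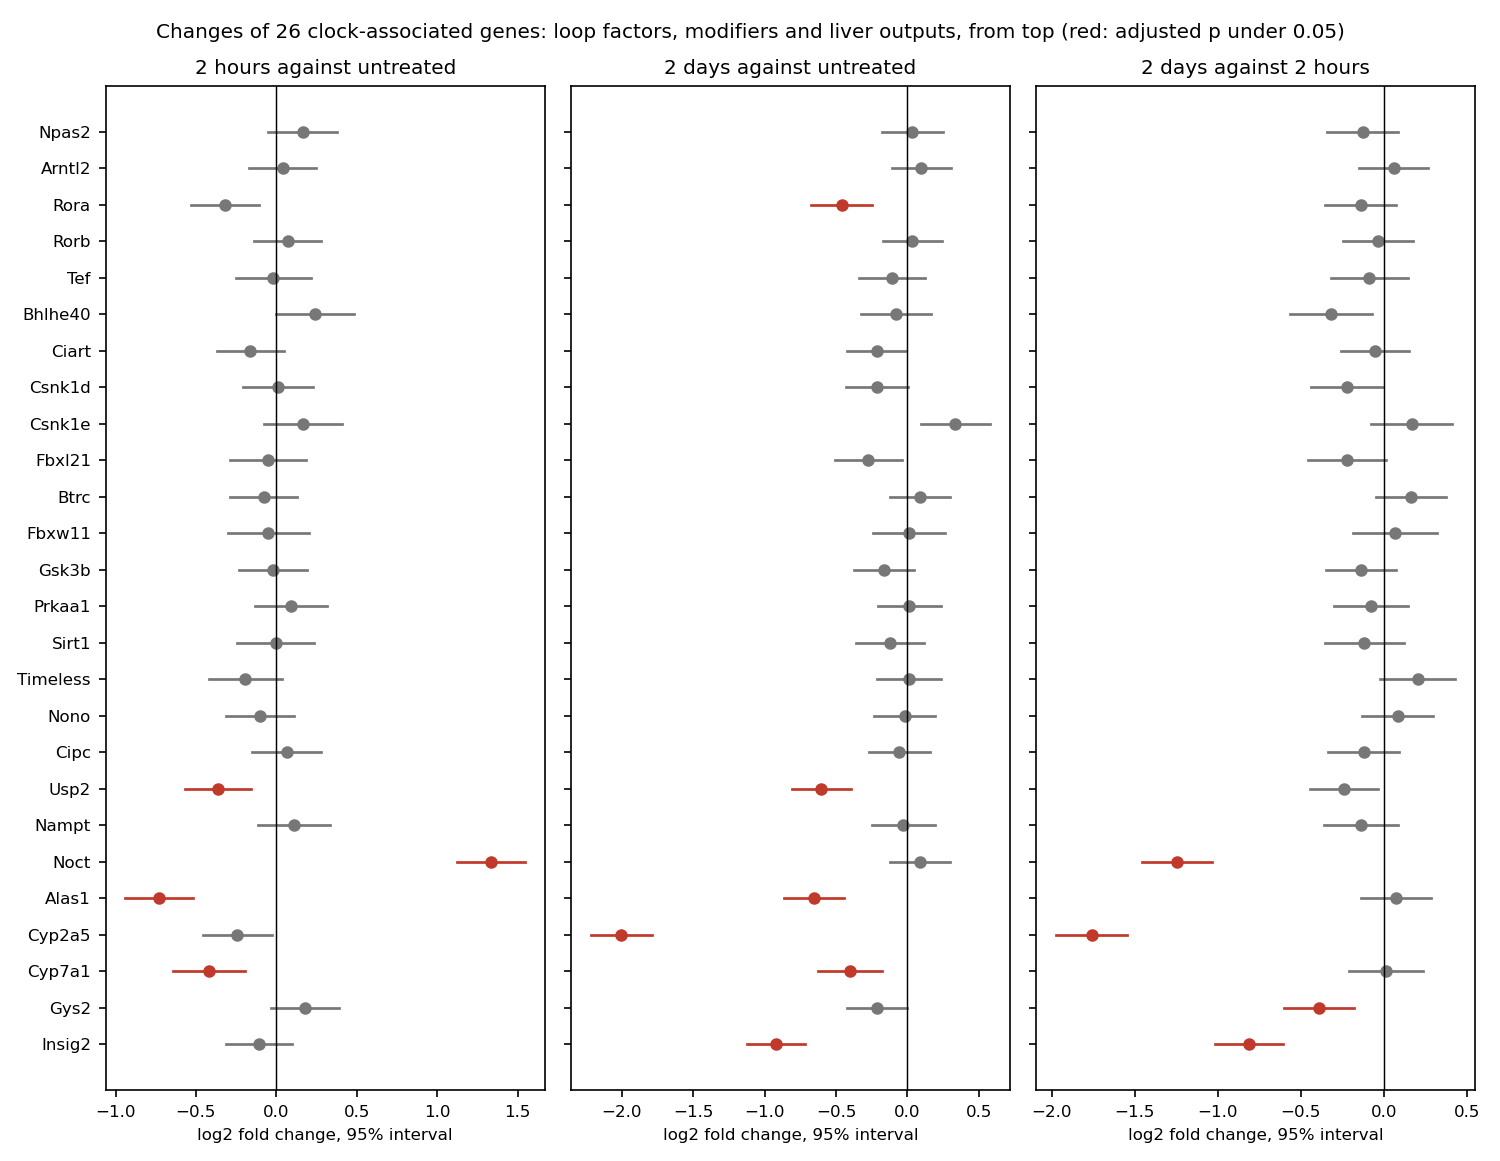
Log2 fold change with 95% interval of the 26 clock-associated genes in each comparison, from the limma fit with 1 probe per gene; the first 7 rows are loop factors, the next 11 modifiers and the last 8 liver outputs, and red marks an adjusted p under 0.05. None of the modifiers is red in any panel, though at 2 days the intervals of Csnk1e (above 0) and Fbxl21 (below 0) leave out 0, Noct stands out above 0 at 2 hours, and Cyp2a5 and Insig2 lie lowest at 2 days.

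Genes with the pattern most like that of a member were taken as the 3 with the smallest distance over the 2 log2 changes against untreated cells, among 13438 genes. For Per1 these were Ap1g1, Cdc42ep5 and Acox2 (distance 0.01 to 0.02 in log2), with a Pearson r of 0.86 to 0.88 to Per1 over the 6 arrays. For Per2 they were Rin2, Fbxl14 and Zmym3, of which Fbxl14 had the highest r (0.99). For Cry2 they were Cyp26a1, Grb7 and Rhpn2, with Grb7 at r = 0.98. These likenesses are descriptions, since 6 arrays of 3 groups share the same group means.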

How the data were processed

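The authors' deposited table holds a linear intensity for each probe on each array. Per the labels' protocols, biotin-labelled cRNA was made from total RNA. The 6 columns share 1 distribution (sorted columns differ by at most 0.333%), as after quantile normalization, and scanning and normalization software are not given in the sources used here. Arrays were grouped by their titles. Gene names came from the platform's probe annotation, with symbols updated by entrez identifier from a RefSeq table (34885 probes with 1 symbol, 18 with several, 10378 without). Intensities were taken to log2 with no further scaling. A probe passed when it exceeded the array's 50th percentile on at least 2 arrays (26272 probes). The passing probe with the highest mean stood for its gene (13438 genes). The model, with 1 mean for each group over the 6 arrays, was fitted by limma 3.58.1 under R 4.3.3 (lmFit, eBayes; 3 residual and 21.22 prior degrees of freedom), once with 1 probe per gene and once over all passing probes. The small number of arrays limits the precision. The fit was tested on simulated data with independent normal noise of the spread that the fit itself estimated. Such data cannot show how technical replicates or time in culture would affect the calls. All 10 members and every called gene of 3 associated lists are named. Members and lists were chosen with earlier results of these data known, so they give no independent support. Alternatives changed the scaling, background, filter, probe choice, variance model, arrays in the fit, replicate block, threshold and left-out array.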

Additional observations from a re-analysis of the deposited data

Results flagged for a closer look

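The group at 2 days differed from the group at 2 hours for 4 of 8 clock genes and 4 of 8 liver outputs, against 15.3% of all genes tested. This was by the limma test of the difference itself over all 6 arrays. Of the 7 loop factors and 11 modifiers 0 were called. The log2 difference, 2 days minus 2 hours, was 0.55 for Per2 (adjusted p = 0.0007), 0.40 for Cry2 (adjusted p = 0.00621), 0.37 for Dbp (adjusted p = 0.0193) and -0.50 for Per1 (adjusted p = 0.00237). Among the outputs it was -1.25 for Noct (adjusted p = 1.16e-09), -1.76 for Cyp2a5 (adjusted p = 4.06e-12), -0.81 for Insig2 (adjusted p = 1.24e-06) and -0.39 for Gys2 (adjusted p = 0.00905). The Cyp2a5 value comes from 1 of 5 probes, and with their mean it was -0.47. After normexp Cry2 alone of the clock genes stayed called, while the 4 outputs did. The calls of Per1, Cry2, Dbp and Gys2 depended on single arrays, as given above. TNFα exposure cannot be told apart here from time in culture or the clock time of harvest.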

How the results depend on the processing

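Of 954 values over single genes under the alternatives, 898 kept their direction and side of the threshold, 49 lost a call, 4 gained one and 3 changed sign. The 3 were not called: Per3 at 2 hours without 2 hour replicate 1 (-0.0003), and between the times Cyp7a1 without 2 hour replicate 2 (-0.085) and Alas1 without 2 day replicate 2 (-0.014). Leaving out each array in turn gave -0.0003 to 0.32, -0.085 to 0.11 and -0.014 to 0.16 for these. Some alternatives could change little, so the 898 do not measure how firm the calls are. Median centring and repeated quantile normalization acted on columns that already shared a distribution. Leaving out an array outside a comparison kept its log2 change, and a looser threshold could lose no call. Counts of calls are given as clock genes, clock probes and associated genes. At 2 hours these were 2, 3 and 4, at 2 days 2, 3 and 6, and between the times 4, 6 and 4. After normexp they were 0, 0 and 1 at 2 hours, 1, 0 and 4 at 2 days, and 1, 0 and 4 between the times. Over all genes normexp left 95 of 379, 654 of 1701 and 810 of 2056 calls, and at 2 hours 81 higher and 14 lower in place of 237 and 142. Over all genes an adjusted p under 0.01 gave 229, 1075 and 1330 calls, the mean of a gene's probes 250 at 2 hours, and leaving out an array 187 to 384 at 2 hours and 1270 to 2155 between the times. An adjusted p under 0.01 gave 1, 1 and 2 at 2 hours, and 1 clock gene and 1 probe at 2 days. Cyclic loess gave 1 clock gene at 2 hours, and the mean of a gene's probes 2 associated genes. Leaving out each array gave 1 to 2, 1 to 3 and 2 to 3 at 2 hours, 1 to 2 and 1 to 3 (clock genes and probes) at 2 days, and 2 to 4 and 2 to 6 between the times; a lone array was assumed to vary like the others. Causes were not tested. The labels do not say whether equal replicate numbers pair arrays of different groups. Deviations of replicate 1 from its group mean correlated little between groups (r -0.15, -0.08 and 0.04). That cannot show whether such arrays share an animal or culture. With replicate numbers as a block the counts were 2, 2 and 3, then 2, 3 and 6, then 4, 6 and 4. Dim probes near background limit what could be seen for Cry1, Nr1d1 and Per3.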
